A study of Mus musculus with 24 samples.

Results

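The regions described here are those of 8 microRNA genes of the brain: Mir137, Mir129-2, Mir124a-1, Mir124a-2, Mir124a-3, Mir9-1, Mir9-2 and Mir9-3. H3K4me3, a histone mark of active promoters, had been counted in 12 libraries over a single list of 17993 regions on mm9. A region was taken for a microRNA gene when it contained the 5′ end of the precursor hairpin, which held for 5 of the 8 genes (Mir137, Mir129-2, Mir124a-1, Mir124a-3 and Mir9-1). A 6th region was taken for Mir9-3 because the study lists that position under its name, and 2 genes, Mir124a-2 and Mir9-2, had no region.

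Both lines carried the CAG-driven H2B-FLAG cassette in the Rosa26 locus on a C57BL/6 background, and the tissue is labelled as cerebral cortex. In the Rosa H2B-FLAG line (genotype label Rosa CAG-H2B-FLAG), the cassette had been recombined by Vasa-Cre, so that the tagged histone was made in almost all cells. In the Camk2a H2B-FLAG line (Rosa26 CAG-floxed-pA-H2B-FLAG/ CaMKCreERT2), double-heterozygous males received 1 mg of tamoxifen a day for 5 days at the age of 8 weeks and were killed a month later, so that the tag was made in Camk2a-positive neurons of the adult. The age and sex of the Rosa H2B-FLAG animals were not given in the sources used here, and effects of tamoxifen, of the Cre driver and of the tagged cell population cannot be told apart in a comparison of the lines. Each line had 3 libraries of single ChIP-Seq, precipitated with anti-H3K4me3 antibody alone from all cells, and 3 of tChIP-Seq, in which chromatin was first purified with anti-FLAG antibody and then precipitated with anti-H3K4me3 antibody. Each lysate came from 2 animals.

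Primary microRNA transcripts are made by RNA polymerase II, and their promoters carry H3K4me3 like those of protein-coding genes. The hairpin can lie close to the start site or far downstream of it, so a region over a hairpin is not proof of a promoter for it. miR-124 and miR-9 are known as microRNAs of the neuronal lineage that act against non-neuronal programmes, miR-137 is known for roles in neuronal maturation and synapses, and miR-129 for control of neuronal excitability. Several of these genes are textbook targets of the repressor REST, which binds RE1 elements and keeps neuronal genes silent in other cells.

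The mature sequences are printed because they show which genes make the same product. In the RefSeq miRNA table used here (GRCm38.p6), 5 of the 8 genes were matched by name. The 3 Mir124a genes were not, so no miR-124 sequence is printed. The capitals mark the seed, bases 2 to 8. Mir9-1, Mir9-2 and Mir9-3 give the same mature pair, while the miR-129-5p of Mir129-2 is also made by Mir129-1.
miR-137-3p: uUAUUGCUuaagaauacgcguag
miR-137-5p: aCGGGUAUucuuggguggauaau
miR-129-5p: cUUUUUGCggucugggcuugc
miR-129-2-3p: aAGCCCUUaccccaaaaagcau
miR-9-5p: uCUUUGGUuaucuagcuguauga
miR-9-3p: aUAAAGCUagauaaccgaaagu
None of the 6 seeds was shared between the miR-137, miR-129 and miR-9 genes.

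The regions over the hairpins were among the widest of the list. The Mir137 region, chr3:118132659-118139355, was 6697 bp wide, with 70 of 17993 regions wider. It also contained the 5′ end of a microRNA precursor annotated under the clone name AC122183.1. The Mir129-2 region, chr2:94080468-94087579, was 7112 bp wide, with 36 wider. The Mir124a-1 region, chr14:65205517-65212306, was 6790 bp wide, and it also contained the start site of the lincRNA A930011O12Rik, in which the hairpin lies. A microRNA precursor annotated under the clone name AC134898.1 had its 5′ end there too. The Mir124a-3 region, chr2:180625022-180629882, was 4861 bp wide and contained no other annotated start site. The Mir9-1 region, chr3:88017105-88021158, was 4054 bp wide and contained the start site of its host lincRNA Gm3764. It also contained the 5′ ends of microRNA precursors annotated under the clone names AC044864.1 and AC044864.2. The median width was 6697 bp for these 5 regions and 1774 bp for all regions, and none of the 5 contained the TSS of a protein-coding gene. Because each region has a single count over its whole width, signal of the host start site and signal at the hairpin cannot be told apart.

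In each of the 5 regions more of the region lay upstream of the hairpin's 5′ end than downstream of it. The upstream stretch was 5969 bp for Mir129-2, 4102 bp for Mir137, 3977 bp for Mir124a-1, 3714 bp for Mir124a-3 and 2415 bp for Mir9-1. The RefSeq promoter of Gm3764, 250 bases before to 50 after the gene's start, is printed because it lies whole in the Mir9-1 region, the only one of the 5 that did not differ between the lines below. It matched mm9 once, at chr3:88018154-88018453 on the plus strand, and held 9 CG dinucleotides, which are in capitals.
Gm3764 promoter: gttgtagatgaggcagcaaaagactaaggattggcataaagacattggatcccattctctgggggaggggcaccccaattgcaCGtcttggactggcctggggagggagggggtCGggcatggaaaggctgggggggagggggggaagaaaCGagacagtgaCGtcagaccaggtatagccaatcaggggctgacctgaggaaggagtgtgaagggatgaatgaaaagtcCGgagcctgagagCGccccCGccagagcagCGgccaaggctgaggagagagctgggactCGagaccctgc

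The genes without a region over the hairpin differed in what lay near. For Mir124a-2 (chr3:17695662-17695770, annotated under a clone name and identified by its length and neighbours), the nearest region was 257677 bp away. For Mir9-2 (chr13:83878411-83878497, in the lincRNA C130071C03Rik), the nearest region began 5456 bp downstream of the hairpin's 5′ end, and none of the 3 RefSeq starts of the host lay in a region, the closest being 3954 bp from one. For Mir9-3 (chr7:86650150-86650239), the nearest region, chr7:86659961-86660854, began 9811 bp downstream and contained a RefSeq start of the host Mir9-3hg. The region that the study lists for Mir9-3, chr7:86680033-86681951, was 1919 bp wide, lay 29883 bp downstream of the hairpin's 5′ end and contained no annotated start site. Values given for Mir9-3 below are those of this listed region, and its assignment to Mir9-3 rests on the study's table alone.

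**Figure D1:**
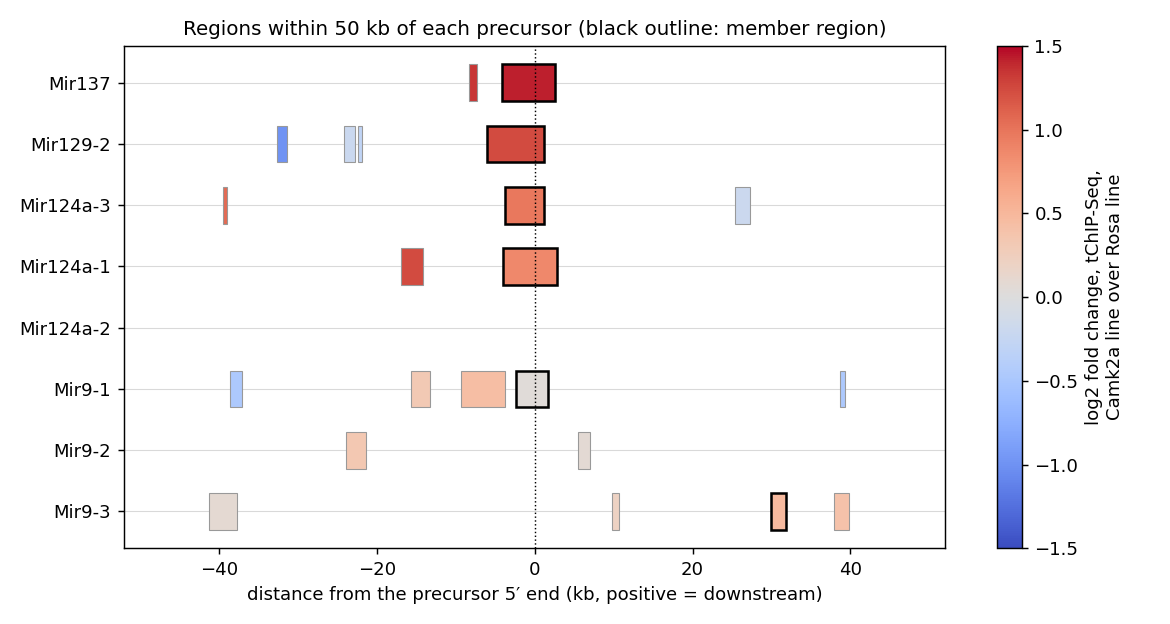
Regions within 50 kb of the precursor 5′ end of each gene, with the distance in kb along the direction of transcription on the x axis and the colour giving the log2 fold change of tChIP-Seq, Camk2a line over Rosa line. Black outlines mark the 6 regions taken for the genes. Those of 5 genes lie over the 5′ end at 0 and that of Mir9-3 lies 29883 bp downstream, while Mir124a-2 has no region in the window.

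An exact RE1 core, searched on both strands with a pair of free bases in its middle, was found in 1 of the 6 windows of 5000 bp centred on the regions, that of Mir124a-3. It is printed 5′ to 3′ on its strand, with all letters that the search required in capitals and the free bases in lower case.
RE1-like letters at chr2:180629244-180629258, minus strand: CAGCACCgaGGACAG
The match was centred 515 bp downstream of the hairpin's 5′ end. Among the windows of all 17966 regions that lie on chromosomes of the reference, 0.568% held an exact match and 3.3% held a match with at most 1 mismatch. None of the other 5 windows held either. The Mir124a-3 window was also the richest of the 6 in CG, with a GC content of 61.6% against a median of 48.3% over all windows and a CpG observed over expected of 0.664 against 0.389. The Mir137 window, at 47.7% GC, lay below that median.

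The libraries differed in depth, and all were used. Total counts ranged from 6316125 to 8644574 in Rosa single ChIP-Seq, from 4063200 to 4233144 in Camk2a single ChIP-Seq, from 1457261 to 1828371 in Rosa tChIP-Seq and from 2709729 to 3049130 in Camk2a tChIP-Seq. In the 6 regions, counts per library ranged from 72 to 1973. No pair of replicates agreed within sampling noise, with a chi-square per degree of freedom from 1.03 to 1.09 over the 12 pairs. Among marker lists, 5 of 7 excitatory neuron regions were higher and none was lower in Camk2a than in Rosa tChIP-Seq, while lower calls were made for 5 of 6 inhibitory neuron, 6 of 7 astrocyte, 5 of 5 oligodendrocyte, 1 of 1 microglia and 7 of 7 endothelial regions. The 7th astrocyte region, that of the glutamate transporter gene Slc1a2, was higher. Of all regions, 17.0% were called higher and 14.6% lower in the same comparison, at an adjusted p below 0.01 in edgeR's quasi-likelihood test.

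The line difference in tChIP-Seq asks which promoters carry more of the mark in tagged Camk2a-positive neurons than in the tagged cells of the whole tissue. In all, 4 regions, those of Mir137, Mir129-2, Mir124a-3 and Mir124a-1, were higher in the Camk2a line, with folds from 1.82 to 2.68, and the Mir9-1 region did not pass the test. The Mir137 region had 84.0, 79.3 and 70.2 CPM in the 3 Rosa tChIP-Seq libraries (CPM here are counts scaled to library size with TMM factors) and 189.6, 232 and 208 CPM in the 3 of Camk2a tChIP-Seq. The groups did not overlap, and every Camk2a library lay above all 6 single ChIP-Seq libraries as well, which had 137 to 155 CPM. The log2 fold change was 1.42 (SE 0.0787, adjusted p = 2.34e-27, edgeR's quasi-likelihood test with Benjamini-Hochberg adjustment over all regions), the 350th highest of 17993.

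The Mir129-2 region had 71.5, 66.8 and 77.4 CPM in Rosa tChIP-Seq and 169.6, 168 and 167 CPM in Camk2a tChIP-Seq. Its Camk2a libraries also lay above all single ChIP-Seq libraries, and the log2 fold change was 1.24 (SE 0.0784, adjusted p = 5.05e-24). The Mir124a-3 region had 81.9, 82.3 and 102 CPM in Rosa tChIP-Seq and 169, 176 and 175 CPM in Camk2a tChIP-Seq. Here the Camk2a tChIP-Seq libraries lay only just above all single ChIP-Seq libraries, at 169.3 CPM or more against at most 169.1 CPM. The Rosa tChIP-Seq libraries stood below all others, as they also did at Mir137 and Mir129-2. The log2 fold change was 0.98 (SE 0.0758, adjusted p = 1.37e-19).

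The Mir124a-1 region had 121, 110.3 and 109.6 CPM in Rosa tChIP-Seq and 179, 225 and 221 CPM in Camk2a tChIP-Seq, with a log2 difference of 0.87 (SE 0.0736, adjusted p = 1.36e-17). As at Mir137, Mir129-2 and Mir124a-3, the Rosa tChIP-Seq libraries lay below all others, while the Camk2a tChIP-Seq libraries overlapped single ChIP-Seq. How common such separations of groups are among all regions is not given, so those named here and above are a description. The Mir9-1 region had 118, 106 and 129 CPM in Rosa tChIP-Seq and 111, 122 and 129 CPM in Camk2a tChIP-Seq. The groups overlapped almost fully, and the log2 fold change was 0.04 (SE 0.0771, adjusted p = 0.699), with a 95% interval from −0.11 to 0.19. The region listed for Mir9-3 had 39.7, 44.7 and 47.2 CPM in Rosa tChIP-Seq and 55.4, 61.0 and 65.2 CPM in Camk2a tChIP-Seq, with a log2 difference of 0.48 (SE 0.115), given without a test because the region was found through this contrast. In bulk chromatin, more cells with the mark and more of the mark per cell cannot be told apart.

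**Figure D2:**
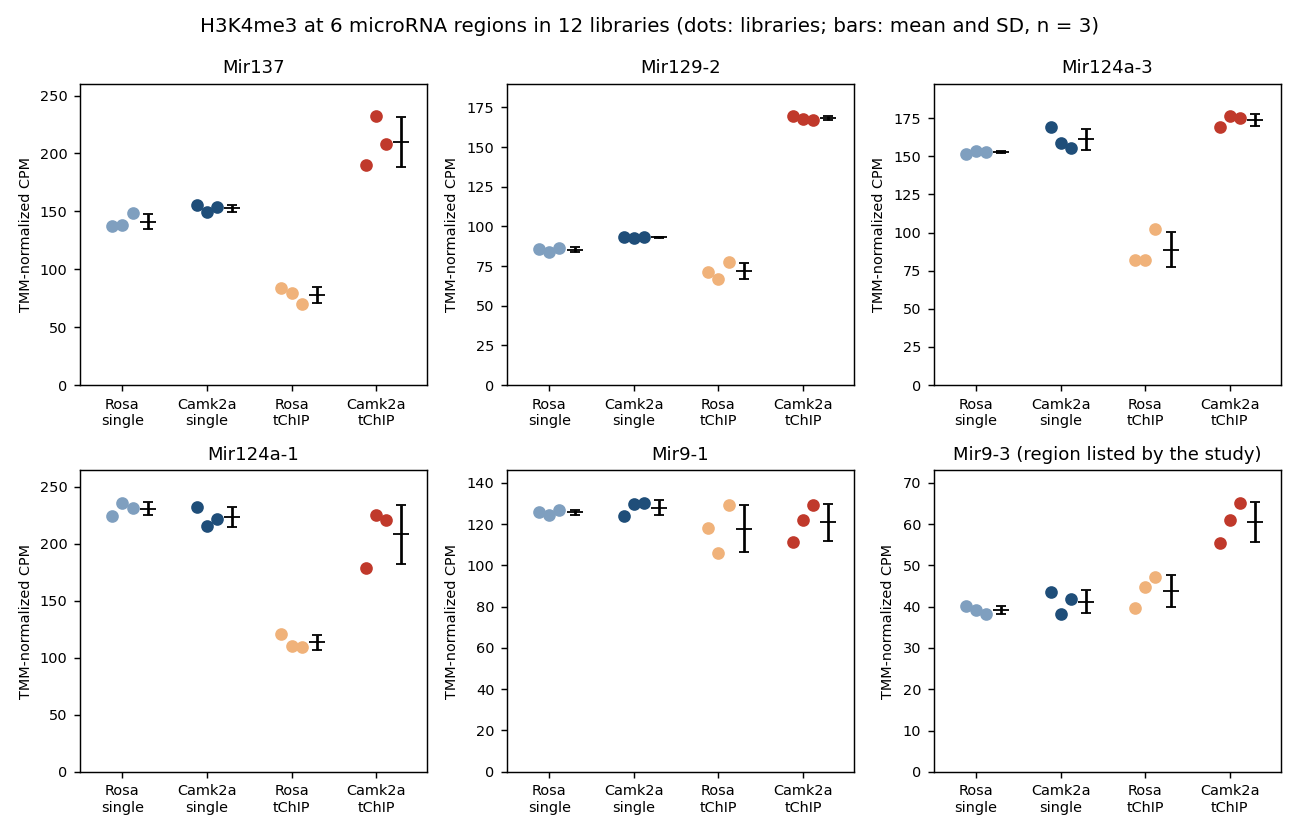
TMM-normalized CPM of the 6 regions in each of the 12 libraries, by group on the x axis, with dots for libraries and bars for the mean and SD of 3 libraries. At Mir137, Mir129-2 and both Mir124a regions the Rosa tChIP-Seq libraries lie below all others, a description given without the share of all regions that do so. The Camk2a tChIP-Seq libraries lie well above all others at Mir137 and Mir129-2 and only just above them at Mir124a-3. At Mir9-1 the 4 groups overlap.

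These counts stand against a background in which 31.6% of all regions were called in this comparison, 17.0% of all as higher and 14.6% as lower. The median log2 fold change was 0.98 over the 5 regions with a hairpin and −0.0033 over all regions. A comparison by width was added after seeing the data. Of the 1047 other regions between 4054 and 7112 bp wide, 50.7% were higher and 14.7% were lower, with a median of 0.22. The study lists 5 of the 6 regions, all except that of Mir9-1, among those enriched in this same contrast, with the Mir124a-1 region under the name Mir3078, so that their direction here is not independent evidence. With the listed Mir9-3 region, which was found through this contrast, 5 of the 6 lay past the threshold, as a description only. In the same contrast 108 other regions with the 5′ end of an annotated microRNA precursor had a median of −0.01, with 18.5% higher and 17.6% lower, which is near the share over all regions.

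**Figure D3:**
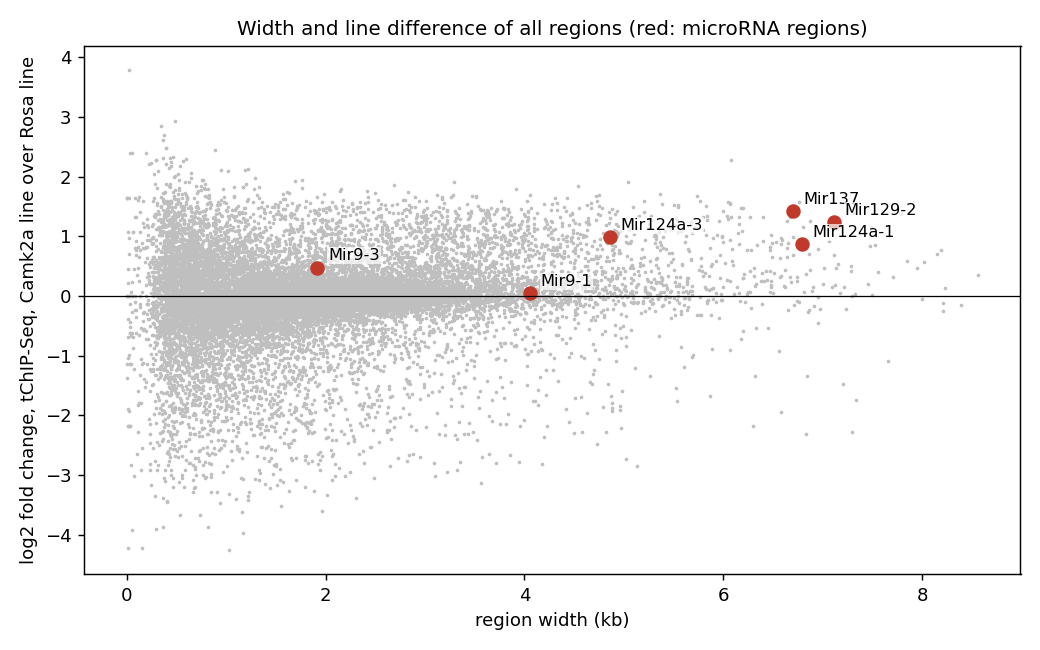
Log2 fold change of tChIP-Seq, Camk2a line over Rosa line, against region width in kb for all 17993 regions, with the 6 microRNA regions in red. The 5 regions over a hairpin are 4054 to 7112 bp wide and the one listed for Mir9-3 is 1919 bp wide, and the 4 called regions over hairpins lie between 0.87 and 1.42.

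In single ChIP-Seq, which reads all cells of the tissue, none of the 6 regions was called between the lines, in a comparison in which 2.15% of all regions were, 0.928% of all regions as higher and 1.22% as lower. At an unadjusted p under 0.05, 2 of the 6 passed. The share of all regions passing there is not given, so this count is a description only. The Wald test of DESeq2 called none either. The Mir137 region had 137, 138 and 148 CPM in the Rosa line and 155, 149 and 154 CPM in the Camk2a line. These groups just failed to overlap, and the log2 fold change was 0.12 (SE 0.044, adjusted p = 0.0887). The Mir129-2 region had 85.7, 83.6 and 86.4 CPM in the Rosa line and 93.3, 92.8 and 93.5 CPM in the Camk2a line, with a log2 difference of 0.13 (SE 0.0557, adjusted p = 0.144). For the other 4 regions the log2 fold change lay between −0.05 and 0.07, with adjusted p from 0.294 at Mir124a-3 to 0.801 at Mir9-1.

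**Figure D4:**
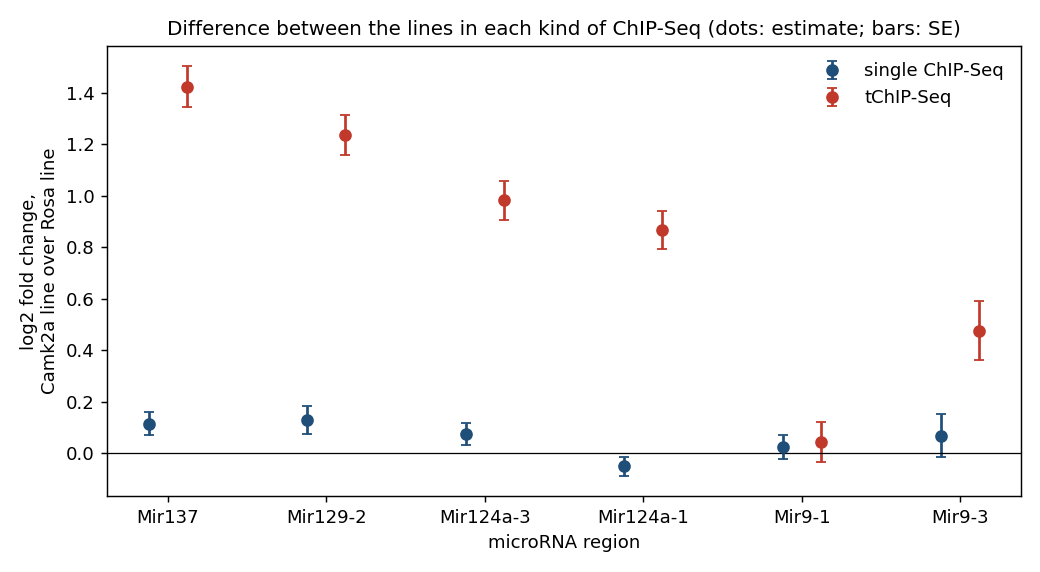
Log2 fold change of the Camk2a line over the Rosa line at each of the 6 regions in single ChIP-Seq (blue) and tChIP-Seq (red), with bars for the SE. In single ChIP-Seq the 6 estimates lie between −0.05 and 0.13, and in tChIP-Seq 4 of them lie at 0.87 or above while that of Mir9-1 is 0.04.

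The difference of the line effects between the kinds of ChIP-Seq was tested as an interaction over all 12 libraries, in which 26.9% of all regions were called, 13.7% as higher and 13.2% as lower. It passed for Mir137 at 1.30 (SE 0.0896, adjusted p = 1.01e-33), for Mir129-2 at 1.10 (SE 0.0983, adjusted p = 1.50e-22), for Mir124a-1 at 0.91 (SE 0.0793, adjusted p = 1.88e-23) and for Mir124a-3 at 0.90 (SE 0.0874, adjusted p = 1.01e-19), all on the log2 scale. For Mir9-1 it was 0.01 (SE 0.0896, adjusted p = 0.952), with a 95% interval from −0.17 to 0.18. For the listed Mir9-3 region it was 0.40 (SE 0.144). Among the 1047 other regions of like width, 50.4% were called higher in this test. All tChIP-Seq libraries enter both this test and the line comparison, so the results of the one do not add to those of the other.

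The comparison of tChIP-Seq with single ChIP-Seq within a line shows on which side each region moved. The kinds differ by the FLAG purification and, in the Camk2a line, also by the cells read, and there these cannot be told apart. In the Rosa line, where the tag was in almost all cells, 4 of the 5 regions over a hairpin were lower in tChIP-Seq, against 22.5% of all regions lower, 24.7% higher and 47.2% called in all. Of the 1047 of like width, 67.8% were lower. The fall was 1.01 on the log2 scale for Mir124a-1 (log2 fold change −1.01, SE 0.0588, adjusted p = 1.84e-62), from 225, 236 and 231 CPM in single ChIP-Seq to the 109.6 to 121 CPM given above. For Mir137 the log2 fold change was −0.83 (SE 0.0728, adjusted p = 2.21e-28) and for Mir124a-3 it was −0.78 (SE 0.0693, adjusted p = 1.40e-27). The Mir129-2 region was called at −0.24 (SE 0.0827, adjusted p = 0.00925), but leaving out a library of Rosa single ChIP-Seq (replicate 1 or 3) or of Rosa tChIP-Seq (replicate 1 or 2) ended the call, with adjusted p up to 0.0833, as did the DESeq2 Wald test at both filtering levels (0.0285) and a minimum of 10 counts (0.0272). For Mir9-1 the value was −0.09 (SE 0.0656, adjusted p = 0.258), and for the listed Mir9-3 region it was 0.16 (SE 0.113), without a test because the Rosa tChIP-Seq libraries entered the contrast through which it was found.

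In the Camk2a line, 2 of the 5 regions were higher in tChIP-Seq, against 25.3% of all regions higher, 22.6% lower and 47.9% called in all. Of those of like width, 34.8% were higher. These were Mir129-2, at 0.85 (SE 0.0586, adjusted p = 3.37e-31), and Mir137, at 0.46 (SE 0.0516, adjusted p = 8.93e-15). The 3 libraries of each group did not overlap in either region, a description given without the share of all regions that did so. Both Mir124a regions were near their level in single ChIP-Seq: Mir124a-3 at 0.11 (SE 0.0521, adjusted p = 0.0646) and Mir124a-1 at −0.11 (SE 0.0488, adjusted p = 0.0492), and without Camk2a tChIP-Seq replicate 2 the latter was called lower, at −0.17 (adjusted p = 0.00608). The Mir9-1 region was at −0.09 (SE 0.06, adjusted p = 0.205), and the listed Mir9-3 region was at 0.55 (SE 0.0938), untested for the reason given above. The line comparisons, the kind comparisons and the interaction share libraries, so that their values are set side by side and not counted as separate support.

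Per kb of region width, the levels had a different order in each kind of ChIP-Seq. In Rosa single ChIP-Seq the mean CPM per kb was 34.0 for Mir124a-1, 31.4 for Mir124a-3, 31.0 for Mir9-1, 21.1 for Mir137, 20.4 for Mir9-3 and 12.0 for Mir129-2, and the ranges over 3 libraries overlapped only between Mir124a-3 and Mir9-1 and between Mir137 and Mir9-3. In Camk2a single ChIP-Seq the values were 33.1 for Mir124a-3, 32.9 for Mir124a-1, 31.6 for Mir9-1, 22.8 for Mir137, 21.5 for Mir9-3 and 13.1 for Mir129-2, with the first 3 overlapping in turn and Mir137 overlapping Mir9-3. In Rosa tChIP-Seq the Mir9-1 region came first, at 29.1, and the Mir137 and Mir129-2 regions came last, at 11.6 and 10.1, with overlapping ranges. In Camk2a tChIP-Seq the 6 regions lay closest together, from 35.7 for Mir124a-3 to 23.7 for Mir129-2. There the levels of Mir9-3, Mir137, Mir124a-1 and Mir9-1, from 31.5 down to 29.8, each overlapped the next.

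A ratio of counts within a library does not depend on how the libraries are scaled. Relative to the Mir9-1 region, the Mir137 region had log2 count ratios of −0.49, −0.42 and −0.88 in Rosa tChIP-Seq and of 0.77, 0.93 and 0.69 in Camk2a tChIP-Seq. The Mir137 region thus held fewer reads than the Mir9-1 region in every Rosa tChIP-Seq library and more in every Camk2a tChIP-Seq library. The difference of the mean ratios was 1.39 for Mir137, 1.19 for Mir129-2, 0.94 for Mir124a-3 and 0.83 for Mir124a-1, and for each of these the 3 Camk2a libraries lay above the 3 Rosa libraries. With 3 libraries against 3, the two-sided exact permutation test gave p = 0.1 for each, which is the smallest that this design allows, so it decides nothing here. The Mir9-1 region did not differ between the lines above, so these ratios restate the fold changes from the same counts and are no further support. In single ChIP-Seq the differences of the same ratios lay between −0.07 and 0.10. There the Mir129-2 ratios were separated as well, at −0.41, −0.48 and −0.48 in the Camk2a line and −0.55, −0.57 and −0.55 in the Rosa line (exact permutation p = 0.1), with a difference of 0.10, while those of Mir137, Mir124a-3 and Mir124a-1 overlapped.

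**Figure D5:**
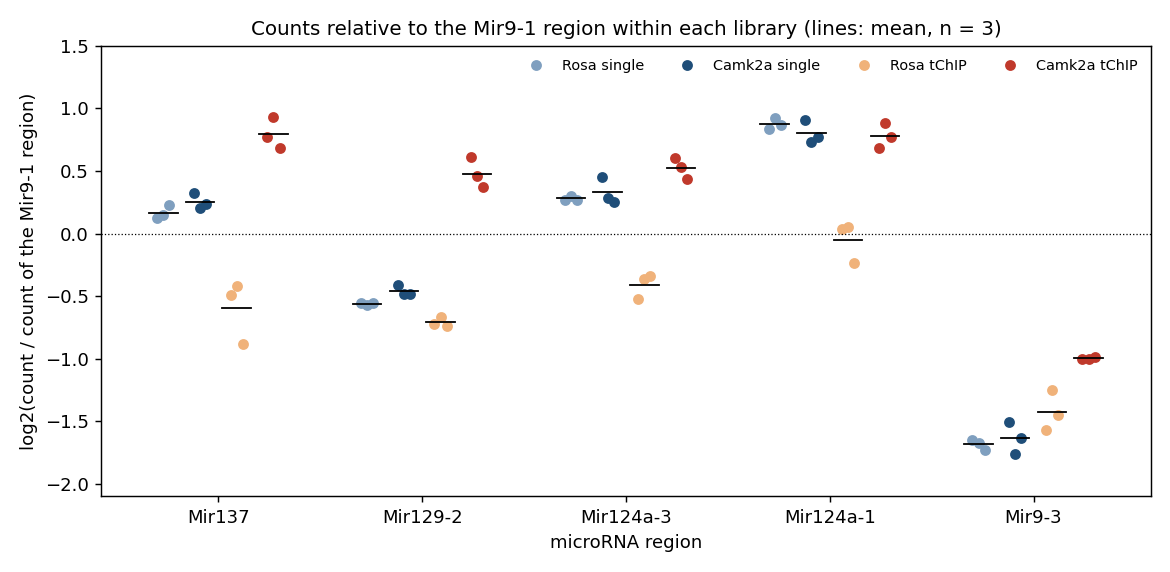
Log2 ratio of the count in each region to the count in the Mir9-1 region of the same library, with dots for libraries coloured by group and lines for the mean of 3 libraries. At Mir137 the Rosa tChIP-Seq libraries lie between −0.88 and −0.42 and the Camk2a tChIP-Seq libraries lie between 0.69 and 0.93.

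Within 50 kb of the 8 precursors lay 16 further regions, of which 3 were higher and 1 was lower in Camk2a than in Rosa tChIP-Seq, against 17.0% higher and 14.6% lower of all regions. The share of higher calls was near that of all regions, and the 4 are given as a description of the surroundings. A region 7258 bp upstream of Mir137, chr3:118128475-118129503, had 6.78, 13.7 and 7.22 CPM in Rosa tChIP-Seq and 23.9, 23.5 and 22.1 CPM in Camk2a tChIP-Seq. Its log2 fold change was 1.34 (SE 0.218), close to that of the Mir137 region itself. A region 14176 bp upstream of Mir124a-1, chr14:65192617-65195318, had 21.9, 25.05 and 17.1 CPM against 48.6, 53.4 and 49.4 CPM, a log2 difference of 1.23 (SE 0.144). Neither contained an annotated start site.

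At Mir9-1 the neighbour differed from the region over the hairpin. A region of 5500 bp that ended 3760 bp upstream, chr3:88010261-88015760, had 134, 148 and 128 CPM in Rosa tChIP-Seq and 169.9, 194 and 189.7 CPM in Camk2a tChIP-Seq, a log2 difference of 0.43 (SE 0.0677). It contained no annotated start site and is listed under Mir3093 by the study. The call in the other direction was for a region 31385 bp upstream of Mir129-2, chr2:94112995-94114281, at −0.99 (SE 0.179), with 27.1, 24.5 and 32.8 CPM in Rosa and 13.1, 14.1 and 14.7 CPM in Camk2a tChIP-Seq. The nearest region to Mir9-2 was at 0.08 (SE 0.172) and that at the RefSeq start of Mir9-3hg was at 0.20 (SE 0.24), and neither was called.

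Genes that act with these microRNAs were taken as lists. Of 14 genes of microRNA processing, 13 had a region. In the tChIP-Seq line comparison 1 was higher, 1 was lower and 11 were not called, against 17.0% higher and 14.6% lower of all regions. The median log2 difference was −0.05. The higher one was Ago1, an Argonaute protein gene, at 0.32 (SE 0.0896), and the lower one was Drosha, which encodes the nuclease that cuts the primary transcript, at −0.38 (SE 0.0843), in a region that also contained the start site of 6030458C11Rik. The same region was also lower in single ChIP-Seq, at −0.27 (SE 0.0547, adjusted p = 5.21e-04) and its interaction did not pass (adjusted p = 0.398).

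Of 21 known regulators or targets of these microRNA genes, 20 had a region, with 4 higher, 6 lower, 10 not called and a median of −0.05, against 17.0% higher and 14.6% lower of all regions. The region of Rest, the repressor itself, had 96.0, 123 and 106 CPM in Rosa tChIP-Seq and 56.1, 54.9 and 63.4 CPM in Camk2a tChIP-Seq, a log2 difference of −0.89 (SE 0.0932, adjusted p = 1.76e-13), while in single ChIP-Seq it was −0.11 (adjusted p = 0.241). It was named after its values had been seen, for its role, and a link between it and the microRNA regions was not tested. It stands outside the 4 called regions of this list with the largest changes. Those 4 were Nr2e1, a nuclear receptor gene of neural stem cells and a target of miR-9, at −1.68 (SE 0.0995), Jag1, a Notch ligand gene and a target of miR-124, at −1.43 (SE 0.0866), Elavl4, a neuronal RNA-binding protein gene, at 1.20 (SE 0.0977), and Actl6b, the neuronal subunit gene of a chromatin remodelling complex, at 1.14 (SE 0.122). The Nr2e1 region also contained the start site of Ostm1. For Actl6a, the counterpart of Actl6b in progenitors, the value was −0.04 (adjusted p = 0.818).

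Among the regions with a protein-coding TSS whose pattern over the 12 libraries was most like the mean pattern of the 5 regions over a hairpin, by Pearson's r of log2 CPM, were those of Magi2 (r = 0.983), Pak1 (0.983), Ttbk1 (0.982) and Slc4a10 (0.981). These correlations are a description over 12 libraries in 4 groups. Among the genes themselves, r with that mean was 0.973 for Mir124a-3, 0.936 for Mir137, 0.904 for Mir124a-1, 0.737 for Mir129-2 and 0.542 for Mir9-1, which enter the mean, and 0.353 for the listed Mir9-3 region, which does not.

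The summed levels of the marker lists moved with the line in tChIP-Seq as well, and their part in the values above was not tested. From Rosa to Camk2a tChIP-Seq the summed CPM over the library ranges went from 531 to 573 up to 950.1 to 996 for excitatory neurons, from 163 to 183 down to 89.1 to 92.8 for inhibitory neurons, from 489 to 547 down to 267 to 271 for astrocytes, from 262 to 266 down to 85.5 to 94.3 for oligodendrocytes and from 274 to 287 down to 67.5 to 74.4 for endothelium. For microglia 7 of 8 markers had no region, and the only one with a region, Cd40, had 3.94 to 6.56 CPM in Rosa and 0.722 to 2.58 CPM in Camk2a tChIP-Seq. In single ChIP-Seq, 3 of the 5 oligodendrocyte regions were also called lower in the Camk2a line, against 1.22% of all regions. The summed CPM of the 5 went from 308 to 318 in Rosa down to 267 to 269 in Camk2a single ChIP-Seq. No region of the other marker lists was called there.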

How the data were processed

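H3K4me3 single ChIP-Seq and tChIP-Seq libraries of both lines, 3 in each of the 4 groups, were analysed, while the input and FLAG libraries were not used here. The authors deposited read counts per region, as whole numbers without normalization, on a single region list. Per their methods, reads from repeats were removed (Bowtie2 2.1.0), the rest was mapped to mm9 (Bowtie 1.0.0), duplicates were removed, reproducible peaks were called with MACS and reads were counted with bedtools 2.17.0. How the list was merged from the peak calls is not given in the sources used here. Removal of repeats and duplicates can lower counts in regions rich in either.

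The sample groups were taken from the titles and genotypes. For a pair of groups, edgeR 4.0.16 in R 4.3.3 (TMM, glmQLFit and glmQLFTest) took only the 6 libraries concerned, with neither covariate nor filter, and all 12 entered the interaction. Adjustment was by Benjamini-Hochberg over 17993 regions, and a call meant an adjusted p below 0.01. SEs were calculated from the F statistic, and 95% intervals from the estimate and its SE. CPM used the TMM factors of all 12 libraries. The fits were tested on simulated data. p-values measure the spread between libraries. Each lysate came from 2 animals, and whether single ChIP-Seq and tChIP-Seq libraries of the same number share a lysate is not stated.

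Annotation was GENCODE M1 on mm9, with hairpins and host promoters of RefSeq (GRCm38.p6) placed on mm9 by sequence. The 8 genes, the lists and the tests were chosen with earlier results of these data known. The genes named are the 8 themselves, called regions within 50 kb, up to 4 called genes a list by absolute log2 fold change, and the 5 regions most alike in pattern (log2 CPM, prior count 1), of which 1 is not reported here. Alternatives were DESeq2 1.42.0 (its size factors in edgeR, or its Wald test), at least 10 counts in every library, a threshold of 0.05, a replicate block, a fit of all 12 libraries and leaving out each library. The filtering level of DESeq2 was set to the calling threshold after the counts at its default had been seen.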

Additional observations from a re-analysis of the deposited data

Results flagged for a closer look

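At 4 regions the change from single ChIP-Seq to tChIP-Seq differed between the lines by the interaction test of edgeR, and these 4 are listed for that reason. In the same test 26.9% of all regions were called, 13.7% of all as higher. Among the 1047 other regions of like width, 50.4% were called higher. The difference, Camk2a line minus Rosa line on the log2 scale, was 1.30 for Mir137, 1.10 for Mir129-2, 0.91 for Mir124a-1 and 0.90 for Mir124a-3. The regions reached it from different sides. At Mir129-2 the change was −0.24 in the Rosa line and 0.85 in the Camk2a line, at Mir137 it was −0.83 and 0.46, and at the 2 Mir124a regions it was −1.01 and −0.11 for Mir124a-1 and −0.78 and 0.11 for Mir124a-3. Groups of 3 libraries are too small for a test of single outlying libraries.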

How the results depend on the processing

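The tally over single regions held 418 log2 fold changes, either recomputed or set against the threshold of 0.05. Of these, 399 kept their direction and their side of the threshold, 8 were no longer called, 4 became called and 7 changed sign. At 0.05, Mir124a-1 was called between the kinds in the Camk2a line from the same fit (adjusted p = 0.0492, edgeR's quasi-likelihood test). All sign changes were at Mir9-1, which was never called: with 1 library left out at a time its line difference in tChIP-Seq ranged from −0.023 to 0.11 and its interaction from −0.057 to 0.073, and with a minimum of 10 counts the interaction was −0.000406. With 1 library left out at a time, 4 to 5 of the 6 regions passed the threshold in the tChIP-Seq line comparison, 0 in that of single ChIP-Seq, 3 to 4 in each comparison of the kinds of ChIP-Seq and 4 to 5 in the interaction. With the replicate block the counts were 5, 0, 4, 3 and 4, as without it. These counts include the listed Mir9-3 region, which was found through tChIP-Seq values of these libraries, so they are a description only and its passing is no sign of stability. Of all regions, 31.6%, 2.15%, 47.2%, 47.9% and 26.9% were called in the same order of comparisons. Same-numbered libraries did not deviate together (correlations from −0.0173 to 0.0350), so the numbers were not shown to pair them. With a chi-square per degree of freedom of 1.03 to 1.09 between replicates, little spread beyond counting noise was left in which pairing could show. Over all regions, 386 calls between the lines in single ChIP-Seq became 1191 at a threshold of 0.05, 34 with the DESeq2 Wald test and 17 at its default filtering level, added after seeing the data, and the 8617 calls between the kinds in the Camk2a line became 5563 with the DESeq2 Wald test. The median level of the 6 regions in Rosa single ChIP-Seq moved from 26.0 to 25.2 CPM per kb without TMM. The RE1 letters of Mir124a-3 lay outside a window of 2000 bp. Counts as low as 72 in Rosa tChIP-Seq limit the precision there.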

Other observations

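Among 30 other microRNA precursors taken as a list, which includes some known from blood and vessel cells, 6 had their 5′ end in a region, in 5 distinct regions. In the tChIP-Seq line comparison 2 precursors were higher, 1 was lower and 3 were not called, against 17.0% higher and 14.6% lower of all regions, with a median log2 fold change of 0.05. The region of Mir219-2, a microRNA gene known for its role in oligodendrocytes, had 24.0, 18.5 and 30.2 CPM in Rosa tChIP-Seq and 9.84, 7.22 and 5.53 CPM in Camk2a tChIP-Seq, a log2 difference of −1.65 (SE 0.221, adjusted p = 1.08e-09, edgeR's quasi-likelihood test). Mir125b-2 was at 0.51 (SE 0.0961, adjusted p = 7.40e-06) and Mir125b-1 at 0.31 (SE 0.0662, adjusted p = 6.77e-05). Mir132 and Mir212 shared a region, which was not called.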
